A study of Mus musculus with 6 samples.

Results

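The genes described here are the clustered replication-dependent histone genes, taken as every row of the deposited gene table whose symbol begins with Hist1h, Hist2h, Hist3h or Hist4h. The rule found 68 of 23358 gene rows. By type they were 6 genes of the linker histone H1, 18 of H2A, 19 of H2B, 12 of H3 and 13 of H4. By place they were 54 genes of the Hist1 cluster on chromosome 13, between 21715763 and 23934851, 10 of Hist2 on chromosome 3, between 96219916 and 96270192, 3 of Hist3 on chromosome 11, between 58948911 and 58956674, and Hist4h4 alone on chromosome 6, between 136801553 and 136804431 (mm10). RNA had been sequenced from N1E115 cells, a mouse neuroblastoma line that the labels mark as NOS1+, NOS1 being the neuronal nitric oxide synthase. The cells grew for 3 days in 20% oxygen or in 4% oxygen, with 3 libraries at each level, numbered 1 to 3. All 6 libraries are of this 1 line, and whether the 3 at 1 oxygen level were grown as separate cultures is not in the labels. The p-values thus reflect library-to-library spread, part or all of which may be technical. The comparison asks whether histone transcripts differed between the oxygen levels.

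Replication-dependent histones package newly made DNA, and their messages accumulate in S phase and are destroyed when replication ends. The genes have no introns as a rule, and their messages end not in a poly(A) tail but in a conserved stem-loop that the stem-loop binding protein, Slbp, recognises. NPAT switches the clusters on at the start of S phase. H2A, H2B, H3 and H4 form the core of the nucleosome, and H1 binds the DNA that enters and leaves it. The labels conflict on the kit, giving one for stranded total RNA depleted of ribosomal RNA and elsewhere one for mRNA. How far tail-less histone messages were recovered therefore depends on a step that the sources used here do not settle.

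The 3′ stem-loop is a sequence that many of these genes have in common, so a few are shown with the loop and stem in capitals and 5 bases on each side, from GENCODE release M21 transcripts (mm10).
Hist1h1e (chr13:23621777-23621802, minus strand): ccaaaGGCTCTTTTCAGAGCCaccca
Hist1h1t (chr13:23696520-23696545, plus strand): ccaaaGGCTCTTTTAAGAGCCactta
Hist2h2ac (chr3:96220413-96220438, minus strand): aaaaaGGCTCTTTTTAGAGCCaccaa
Hist3h2a (chr11:58955167-58955192, plus strand): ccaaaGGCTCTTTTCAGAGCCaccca
Hist1h2bm (chr13:21722501-21722526, plus strand): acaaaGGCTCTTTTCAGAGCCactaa
Hist1h3f (chr13:23544927-23544952, plus strand): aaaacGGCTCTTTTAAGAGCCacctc
Hist1h3g (chr13:23535884-23535909, plus strand): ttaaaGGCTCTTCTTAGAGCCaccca
Hist1h4d (chr13:23581945-23581970, plus strand): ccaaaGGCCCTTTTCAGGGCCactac
Hist1h4a (chr13:23760795-23760820, minus strand): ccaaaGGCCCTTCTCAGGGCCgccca
Hist1h4b (chr13:23757361-23757386, plus strand): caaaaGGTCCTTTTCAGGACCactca
Hist2h4 (chr3:96262934-96262959, minus strand): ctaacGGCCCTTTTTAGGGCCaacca
Hist4h4 (chr6:136803993-136804018, minus strand): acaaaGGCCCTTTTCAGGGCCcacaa
The histone stem-loop motif, 16 bases long with both ends of the stem and part of the loop fixed and the middle of the stem free, was searched on the sense of annotated transcripts. It stood in 46 of the 68 members (67.6%) and in 201 of 55341 gene names of the annotation (0.363%). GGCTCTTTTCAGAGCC was the form in 3 H1, 10 H2A, 8 H2B and 5 H3 genes, and no H4 gene had it. The 12 H4 genes with a match had other stems, with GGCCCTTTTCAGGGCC in 7 of them. In 16 of the 22 members without a match the annotated transcripts were at most 500 bases long, and Hist2h2bb, Hist1h1b and Hist1h1a, which recur below, were among those without one. In 23 of the 46 members with a match the model ran more than 100 bases past the loop, so the annotation holds longer transcripts for these genes as well.

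Promoters differed by type too. RefSeq windows (GRCm38.p6) from 250 bases before to 50 after each start were matched for 62 members (the first listed window of each), and 2 are shown with 3 motifs in capitals, on either strand: the CCAAT box, the TATA box as written below, and the octamer. They are an H2A gene that shares its upstream side with an H2B gene, and the H4 gene nearby.
Hist1h2ak (chr13:21753863-21754162, minus strand): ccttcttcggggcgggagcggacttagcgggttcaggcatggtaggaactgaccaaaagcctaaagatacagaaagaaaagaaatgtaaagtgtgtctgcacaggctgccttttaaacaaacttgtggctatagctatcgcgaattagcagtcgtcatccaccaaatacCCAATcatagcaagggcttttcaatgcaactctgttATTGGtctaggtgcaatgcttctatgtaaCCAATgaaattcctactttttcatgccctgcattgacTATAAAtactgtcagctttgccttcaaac
Hist1h4k (chr13:21750504-21750803, minus strand): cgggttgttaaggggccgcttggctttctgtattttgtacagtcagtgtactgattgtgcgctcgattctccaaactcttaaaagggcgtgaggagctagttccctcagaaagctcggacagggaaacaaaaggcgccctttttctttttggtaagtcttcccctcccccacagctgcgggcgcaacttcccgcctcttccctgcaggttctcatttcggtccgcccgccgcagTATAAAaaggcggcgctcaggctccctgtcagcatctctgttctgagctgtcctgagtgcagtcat
CCAAT stood in 53 of the 62 windows (85.5%), against 37.4% of 32851 windows of all genes. All 50 matched H1, H2A, H2B and H3 windows held it, and of 12 H4 windows only those of Hist1h4a, Hist1h4c and Hist1h4d did. TATAAA stood in 35 windows (56.5%, against 13.6% of all). The octamer ATTTGCAT stood in 13 (21%, against 1.74%), which were 7 H2A and 6 H2B genes and no gene of another type. A second listed window of Hist1h2be, not among the 62, held it as well. In the 62 windows it overlapped CCAAT in 0. Windows of H2A and H2B genes that share an upstream side overlap, so the same site can count for both genes. This was so for the octamer in Hist1h2aa with Hist1h2ba, Hist1h2ae with Hist1h2bg and Hist1h2ah with Hist1h2bk. The windows are thus not independent of each other, for CCAAT as well. All matches describe the letters in the windows and not bound sites.

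Levels are given as CPM, a gene's count set relative to its library's total over genes and scaled by TMM. The members together took 0.394% to 1.32% of gene counts. Between genes, levels are compared per kilobase of the deposited length, which for part of the members is the coding part alone. On that scale the mean over the 6 libraries was highest for Hist2h2bb, an H2B gene, at 2585 CPM per kilobase. Next came Hist1h1b at 1106, Hist1h4d at 1006, Hist2h4 at 874 (an H4 gene of the Hist2 cluster), Hist1h1a at 636, Hist1h4k at 631, Hist1h2bm at 622 and Hist1h2ak at 577. The median per kilobase was 242 for the H4 genes, 229 for H1, 77.3 for H3, 71.0 for H2B and 32.1 for H2A.

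Not all rows could be read apart. Of the 68 members, 64 shared at least 1 stretch of 50 bases with another GENCODE gene, and in 32 more than 50% of such stretches were shared. The median shared percentage was 73% for H2A, 62% for H3, 44.1% for H2B, 39.5% for H4 and, lowest of the types, 1.12% for H1. Of the stretches in Hist2h2bb 53.6% were shared, with 1 other gene, Gm42743. A total of 7 members did not pass the filter on low counts. Hist1h2ao, Hist1h2ap, Hist1h2bq, Hist1h2br and Hist2h2aa2 had 0 counts in all 6 libraries. Counts are all even, and a limit of 3 read pairs, or 6 counts, comes to 0.0375 to 0.0496 CPM per library, for counting error only. The rows of these 5 overlap those of other members and 88.7% to 100% of their stretches are shared, so a count of 0 does not show that they were little expressed. Hist1h2aa and Hist1h2ba, testis genes by their known expression, reached at most 0.0826 and 0.105 CPM. Below, 61 members passed the filter on low counts, and counts are over these.

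One library stood apart before any comparison. The summed level of the 68 genes was 3970.2 CPM in 20% oxygen replicate 1, 9268 in replicate 2 and 13799.6 in replicate 3. At 4% oxygen it was 9029, 7362 and 8641 CPM. All 3 of the 4% sums lay inside the range of the 20% sums. 20% oxygen replicate 1 was the lowest of the 6 libraries for 58 of the 61 members, against 25.8% of all 14979 genes tested. The exceptions were Hist1h1e, Hist1h1t and Hist2h2aa1. 20% oxygen replicate 3 was the highest library for 46 members, and replicate 2 for 10, against 17.0% and 16.8% of all genes. In RNA from a culture, fewer cells in S phase and less histone RNA per cell cannot be told apart.

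**Figure D1:**
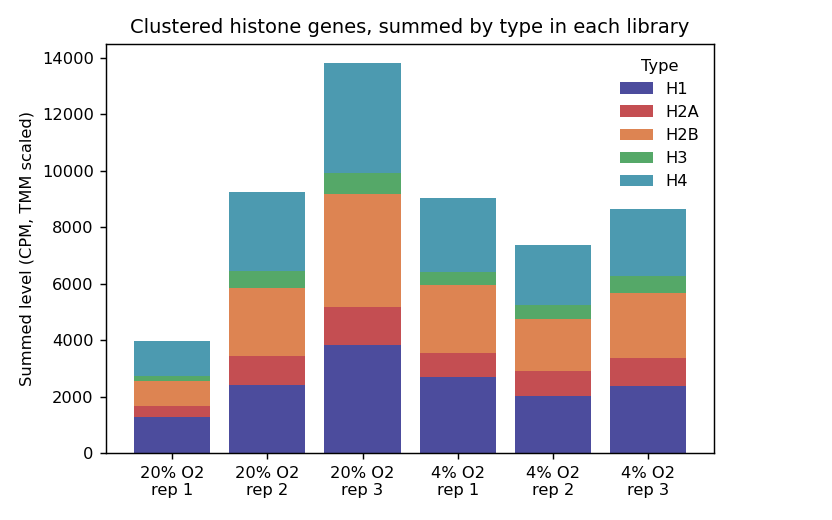
Summed level of the 68 clustered histone genes in each of the 6 libraries (CPM, TMM scaled), stacked by histone type. The column of 20% oxygen replicate 1 reaches 3970.2 CPM and that of 20% oxygen replicate 3 reaches 13799.6 CPM, with the 3 columns of 4% oxygen between them.

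The sums by type shared their extremes at 20% oxygen but not their order at 4%. Linker histones summed to 1295, 2415 and 3847 CPM at 20% and to 2712, 2033 and 2382 at 4%. H2B sums were 859, 2418 and 4016 at 20% against 2392, 1860.1 and 2294 at 4%. H4 gave 1228, 2809 and 3873, then 2621, 2113 and 2373 CPM. The H2A sums ran 397, 1038 and 1323, then 849, 872 and 997, and those of H3 191, 589 and 741, then 455, 484 and 595. In each of the 5 types the lowest sum was that of 20% oxygen replicate 1 and the highest that of 20% oxygen replicate 3. At 4% oxygen H1, H2B and H4 were highest in replicate 1 and lowest in replicate 2, whereas H2A and H3 were lowest in replicate 1 and highest in replicate 3. Without Hist2h2bb the H2B sums at 4% were 1047, 919 and 1136 CPM, highest in replicate 3. The H4 genes of Hist1 alone summed to 1119, 1126 and 1326 CPM at 4%, the order of H2A and H3. The order at 4% thus depended on which genes were summed and is not a trait of a type. Shares of the members' counts, which also depend on length, ranged as follows over the 6 libraries. H1 held 26.1% to 32.6%, H4 27.5% to 30.9%, H2B 21.6% to 29.1%, H2A 9.40% to 11.8% and H3 4.81% to 6.89%. The library 20% oxygen replicate 1 had the highest shares of H1 and H4 and the lowest of H2B and H3. By cluster, the highest library exceeded the lowest 3.10-fold in Hist1, 5.23-fold in Hist2, 3.14-fold in Hist3 and 3.39-fold in Hist4. Hist4 is 1 gene, and Hist2h2bb made up most of the Hist2 sum. It gave 451 of 619 CPM in 20% oxygen replicate 1 and 2461 of 3238 CPM in 20% oxygen replicate 3.

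**Figure D2:**
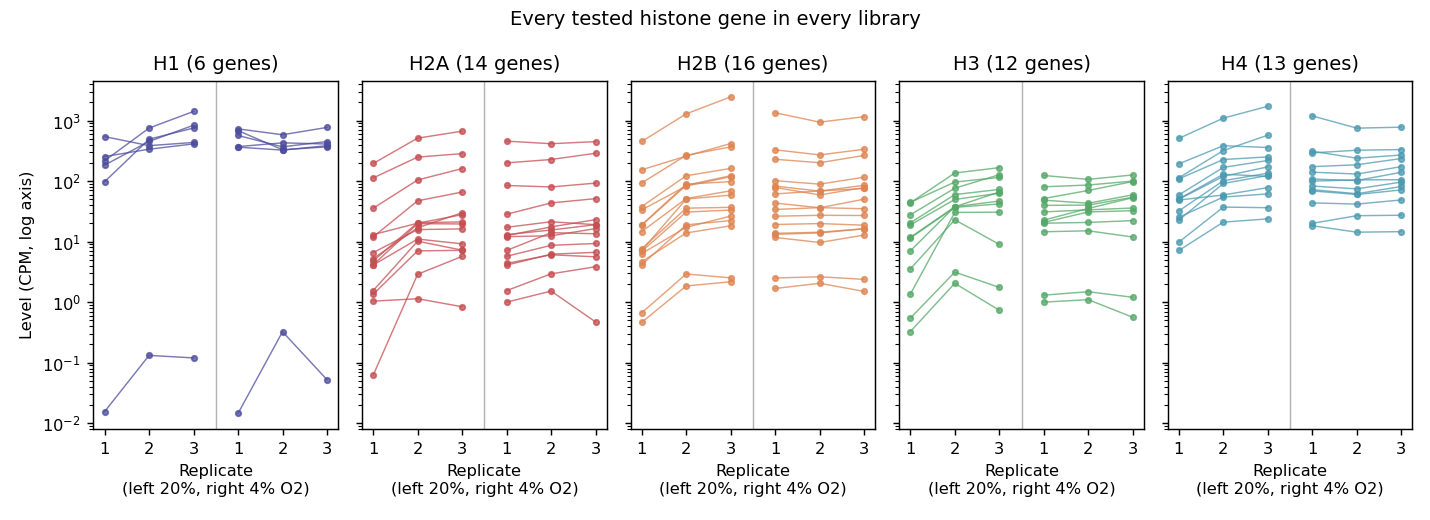
Level of each of the 61 tested members (CPM, TMM scaled, log axis) in each library, 1 panel per histone type, with 20% oxygen on the left and 4% on the right of each panel; a line only joins the points of 1 gene within a group, since replicates have no order. For 58 of 61 genes the point of 20% oxygen replicate 1 is the lowest of the 6.

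Between the oxygen levels no member passed the test. edgeR's quasi-likelihood test called 0 members higher and 0 lower at an adjusted p under 0.05, where it called 0 of 14979 genes in either direction (0%). At an unadjusted p under 0.05 it gave 0 members in either direction, against 3.01% of all genes higher and 1.42% lower. DESeq2 and limma-voom likewise gave 0 members, adjusted or not. The smallest unadjusted p of a member was 0.448 and the smallest adjusted p was 0.996. The sum over members was 9013 ± 4919.7 CPM at 20% and 8344 ± 872 CPM at 4% (SD, n = 3), a log2 ratio of -0.11. The median log2 fold change of the 61 members was -0.0345 and that of all genes -0.025, with 24 members above 0 and 37 below. The members' median was 0.14 when replicate number was blocked and 0.17 in limma-voom, where that of all genes was 0.0049 and 0.0057, so its sign is not stable. In those 2 fits 53 and 55 of the 61 members were above 0. Scaling by library totals alone moved both medians up alike, to 0.0408 for the members and 0.0479 for all genes. The members' values ran from -0.44 to 0.56, and their median standard error, 0.44, was above that of all genes, 0.32. In 0 members did the groups not overlap, against 6.33% of genes with all 4% libraries higher and 3.72% with all lower.

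The width of the 20% group went with this. The coefficient of variation over the 3 libraries at 20% had a median of 59.9% over the members and 29.2% over all genes. At 4% the medians were 14.1% and 21.4%. A p that misses the threshold with such errors does not show that the levels were alike.

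**Figure D3:**
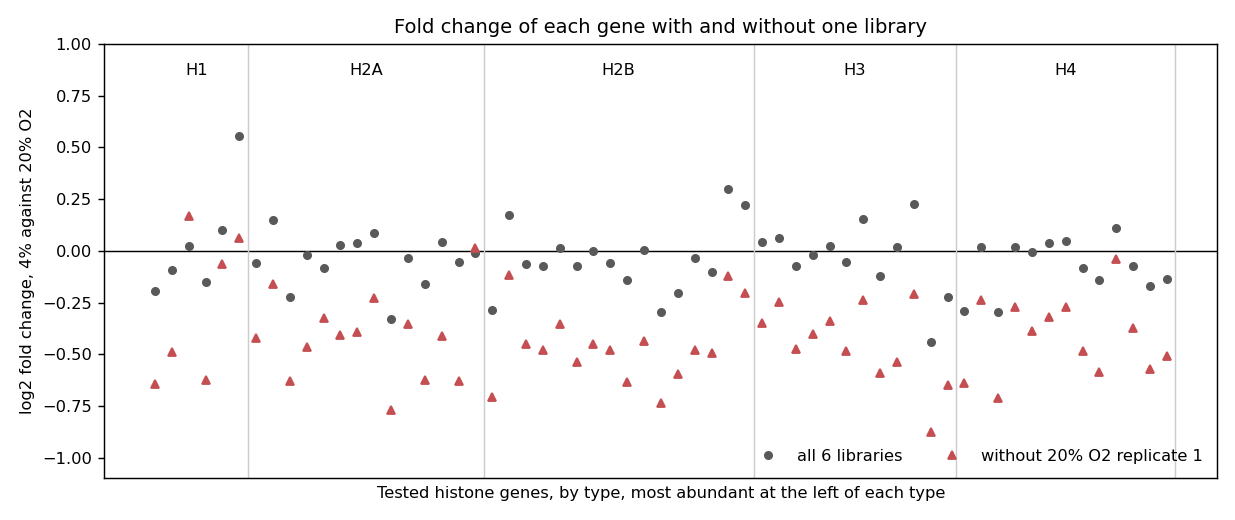
Log2 fold change of each tested member, 4% against 20% oxygen, on the vertical axis (edgeR), with all 6 libraries as grey circles and with 20% oxygen replicate 1 left out as red triangles; genes stand along the horizontal axis by type, the most abundant at the left of each. With all 6 the median is -0.03, and without that library, which was chosen after seeing the data, it is -0.45.

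Leaving out 20% oxygen replicate 1 moved most members below 0. This library was singled out after seeing the data, as the lowest for 58 of 61 members. Its removal raises the 20% mean of those members by construction, so the lower values without it are no separate evidence of a decrease. The same holds for the values without this library given by type and gene below. Without 20% oxygen replicate 1, 59 of 62 tested members were below 0, and their median log2 fold change was -0.45, with 0.004 for all genes. The count below 0 among the 61 members was 56 to 59 in the 4 scalings tried and the median ranged from -0.35 to -0.47. In that fit 14 members had an unadjusted p under 0.05 in the lower direction, against 3.01% of all genes, and 0 did in the higher direction, against 5.79%. They were Hist1h1b, Hist1h1d, Hist1h2an, Hist2h2ac, Hist1h2bh, Hist1h2bp, Hist2h2bb, Hist3h2bb-ps, Hist1h3b, Hist1h3g, Hist1h4a, Hist1h4b, Hist2h4 and Hist4h4. None of the 14 was called after adjustment over all genes (edgeR, 0 called; smallest adjusted p of a member 0.354). In 33 of the 62 members all 3 of the 4% libraries lay below both remaining 20% libraries, against 11% of all genes. With replicate 1 of both groups left out, also chosen after seeing the data, 61 of 62 members were below 0 and the median was -0.40. In that edgeR fit 10 members had an unadjusted p under 0.05 in the lower direction, against 3.85% of genes. Without 20% oxygen replicate 3 instead, 55 of 61 members were above 0 and 6 below, and the median was 0.34. In that fit 0 members had an unadjusted p under 0.05 in either direction (edgeR). As 20% oxygen replicate 3 was the highest library for 46 of 61 members, its removal lowers their 20% mean by construction. The higher values without it are likewise no separate evidence of an increase. The direction thus turned on which 20% library was left out.

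Set against the library of the same number, the members went different ways. In pair 1 the 4% library was higher in 59 of 61 members, with a median log2 difference of 1.30. Pair 2 had 53 members lower at 4% and a median of -0.35, and pair 3 had 56 lower and a median of -0.45. Medians over all genes were 0.01, 0.02 and 0.02. Across the 4 scalings the count was 59 to 60 in pair 1, 53 in each for pair 2 and 45 to 59 in pair 3.

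Among linker histones, Hist1h1b, which encodes a somatic H1 subtype, varied widely. It measured 216, 750.4 and 1413 CPM at 20% and 728, 583 and 769.8 CPM at 4%. The 4% values lay inside the 20% range, and the log2 fold change was -0.19 ± 0.48 (SE, adjusted p = 0.996, edgeR). Without 20% oxygen replicate 1 it was -0.64, with an unadjusted p of 0.0415. Hist1h1a had 184, 452 and 836 CPM at 20% and 682, 329 and 368 at 4%. Hist1h1d had 97.4, 492 and 752 CPM at 20% and 371, 428 and 409 at 4%. Both were lowest in 20% oxygen replicate 1 and highest in 20% oxygen replicate 3.

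Hist1h1e and Hist1h1c, which encode other somatic H1 subtypes, varied little. Hist1h1e had 543, 385 and 435 CPM at 20% and 566, 368 and 450.3 at 4%, so that its highest library exceeded its lowest 1.54-fold, the narrowest span of the 61 members. In 20% oxygen replicate 1 it was not low but stood second of the 6. Its row overlaps that of Hist1h2be, which runs from 23583670 to 23621124, and 32% of its 50-base stretches were shared. Hist1h1c had 254, 336 and 411 CPM at 20% and 364, 325 and 385 at 4%, a 1.62-fold span. Its fold change was 0.10 ± 0.24 on the log2 scale (SE). Hist1h1t, the testis H1, stayed at 0.0145 to 0.325 CPM, and its span rests on a few counts.

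**Figure D4:**
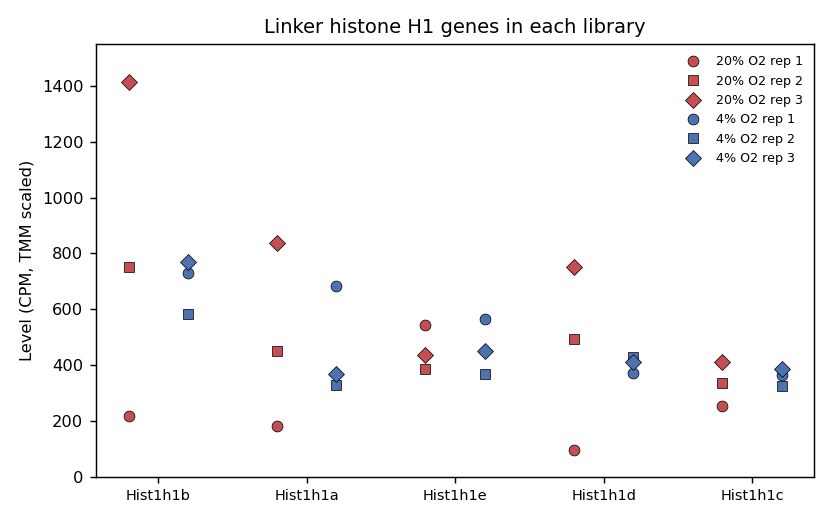
Level of 5 linker histone genes (CPM, TMM scaled) in each library, with symbols for the replicate number and colours for the oxygen level; Hist1h1t, at 0.325 CPM or less, is left out. 20% oxygen replicate 1 is the lowest point for Hist1h1b, Hist1h1a, Hist1h1d and Hist1h1c but the second highest for Hist1h1e.

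Of the 14 H2A genes tested, 13 were lowest in 20% oxygen replicate 1. Their median log2 fold change was -0.03 with all libraries and -0.41 without that one. Hist3h2a, the H2A gene of the small Hist3 cluster, had 195, 512 and 667 CPM at 20% and 457, 414 and 448 at 4%. Those 4% values span a narrow band within the 20% range. Hist1h2ak, whose promoter is shown above, had 113, 249 and 284 CPM at 20% and 199.9, 227 and 288 at 4%. Its log2 fold change, 0.15, was the highest of the H2A genes, with a standard error of 0.33. Hist2h2ac had 35.6, 104 and 161 CPM, then 84.7, 80.0 and 92.6, and Hist1h2an 4.13, 19.8 and 19.6 CPM, then 7.14, 14.1 and 13.5. Hist1h2ad had the widest span of all members, at 0.0620 CPM in 20% oxygen replicate 1 and 5.70 CPM in 20% oxygen replicate 3, or 91.9-fold, on low counts.

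All 16 tested H2B genes were lowest in 20% oxygen replicate 1, and their median log2 fold change was -0.06, or -0.48 without that library. Hist2h2bb had 451, 1289.8 and 2461 CPM at 20% and 1345, 941 and 1158 at 4%. It held the highest level of the type, and 20% oxygen replicate 3 was 5.46 times 20% oxygen replicate 1. Its log2 fold change was -0.29 ± 0.45 (SE, adjusted p = 0.996, edgeR), and -0.71 without that low library. Hist3h2ba had 154, 259 and 417 CPM at 20% and 328, 271 and 335 at 4%. Hist1h2bm had 93.1, 267 and 367 CPM, then 229, 201 and 265. Hist3h2bb-ps, annotated as a processed pseudogene, had 6.90, 30.8 and 33.2 CPM at 20% against 19.2, 19.9 and 18.7 at 4%. Without 20% oxygen replicate 1 it had the smallest unadjusted p of the type, 0.00759, at a log2 fold change of -0.73.

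The 12 H3 genes were all lowest in 20% oxygen replicate 1, with a median log2 fold change of -0.002, or -0.44 without it. Hist1h3f had 43.7, 136 and 167 CPM at 20% and 124, 107 and 126 at 4%. Hist1h3e had 44.4, 96.3 and 115 CPM, then 80.6, 86.1 and 99.96, and Hist1h3i 27.7, 76.3 and 127 CPM, then 51.6, 70.0 and 98.3. In these 3 genes the groups overlapped and the 4% values sat between the extremes at 20%. Hist1h3b had the widest span among the H3 genes, with 1.35 CPM in 20% oxygen replicate 1 against 20.2 to 30.6 in the other 5 libraries. The 3 H3 genes of the Hist2 cluster differed from the rest in that 20% oxygen replicate 2, not replicate 3, was their highest library. Of the 50-base stretches 79.7% were shared in Hist2h3b, 100% in Hist2h3c1 and 63.5% in Hist2h3c2. Hist2h3c1 and Hist2h3c2 averaged only 0.962 and 1.57 CPM. Hist2h3b measured 3.52, 23.0 and 9.002 CPM at 20% and 14.6, 15.1 and 11.9 at 4%. Hist2h3c2, with 0.543, 3.14 and 1.75 CPM, then 1.31, 1.49 and 1.20, had the lowest unadjusted p of all members.

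H4 genes were likewise all lowest in 20% oxygen replicate 1, 13 of 13, with a median log2 fold change of -0.07, or -0.39 without it. Hist4h4, the single gene of its locus, had 508, 1096 and 1721 CPM at 20% and 1191, 749 and 777 at 4%. Its log2 fold change was -0.29 ± 0.38 (SE, adjusted p = 0.996, edgeR), or -0.64 without the low library. Hist2h4 had 113, 319.9 and 573 CPM at 20% and 311, 238 and 270.0 at 4%. Hist1h4d and Hist1h4i varied less. Hist1h4d had 193, 384 and 359 CPM at 20% and 292, 323 and 332 at 4%, a 1.995-fold span. Hist1h4i had 48.7, 59.0 and 78.0 CPM, then 68.8, 60.1 and 71.4, a 1.60-fold span.

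Histone genes that neighbour each other and point away from each other formed 14 pairs with less than 1000 bases between their GENCODE spans. In 2 pairs, Hist1h2bq with Hist1h2ao and Hist1h2ap with Hist1h2br, the deposited rows overlap others and no level was compared. In 11 of the other 12 pairs the levels per kilobase differed 1.21-fold to 5.07-fold. The pair at 5.07-fold, Hist1h2ac and Hist1h2bc, had unlike deposited lengths of 2493 and 728 bases. Among the 11 are Hist1h2ba and Hist1h2aa, at 1.49-fold, which did not pass the filter and rest on few counts. Hist1h2bh and Hist1h3f, 659 bases apart, were the closest in level, at 96.9 and 117 CPM per kilobase. Hist1h2ak and Hist1h2bn, 295 bases apart, stood at 577 and 275 CPM per kilobase, and their log2 fold changes were 0.15 and -0.07. Hist2h2ac and Hist2h2be, 238 bases apart, were the exception. They differed 275-fold, at 238 and 0.868 CPM per kilobase of deposited lengths of 390 and 2618 bases. No test was made of these differences.

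Genes that work with the histones gave 0 calls in either direction as well, in lists of replication-independent histones, histone mRNA factors, histone chaperones, S phase and mitosis (edgeR, adjusted p under 0.05; 0 by DESeq2). At an unadjusted p under 0.05 (edgeR) they held 1 gene, E2f1, higher and 0 lower, against 3.01% and 1.42% of all genes. Of 24 tested factors of histone transcription and 3′ processing 0 had an unadjusted p under 0.05. Slbp had 89.7, 89.9 and 72.2 CPM at 20% and 67.4, 64.7 and 67.5 at 4%, so that the groups did not overlap. Its log2 fold change was -0.34 ± 0.23 (SE, adjusted p = 0.996, edgeR), and it was not low in 20% oxygen replicate 1. Npat had 64.7, 55.1 and 44.9 CPM, then 48.4, 40.5 and 45.8, and was highest in that library. Zfp473, a zinc finger protein of the U7 processing particle, stood at 1.18 to 3.09 CPM at 20% and 2.52 to 3.92 at 4%. Of the 19 chaperones and deposition factors 14 were below 0, with Asf1a at -0.40 and the acetyltransferase Hat1 at -0.29 on the log2 scale, neither called.

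Replication-independent histones, whose messages as a rule carry poly(A) tails, followed the same order of libraries at 20% with a smaller span. Their 15 matched genes summed to 2486, 3502 and 4489 CPM at 20% and 3477, 3213 and 3673 at 4%. H2afz, a replacement H2A, had 214, 612 and 699 CPM at 20% and 344, 348 and 347 at 4%. H2afx, which marks DNA breaks when phosphorylated, had 241, 347 and 453 CPM, then 382, 305 and 387. H3f3b, an H3.3 gene, had 769.8, 1167 and 1205 CPM, then 996, 1042 and 1053, and H1f0, the linker histone of resting cells, had 604, 603 and 1086, then 944, 778 and 1109. Cenpa, the centromeric H3, measured 75.6, 89.9 and 142 CPM at 20% and 53.6, 88.8 and 74.9 at 4%. The oocyte linker histone H1foo was under 0.9 CPM throughout.

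The 47 S phase genes were low in 20% oxygen replicate 1 too. Their sums were 3225, 5701 and 5817 CPM at 20% and 4536, 4136 and 5400.4 at 4%, and 31 of the 47 were lowest in that library. Their median log2 fold change was -0.08, and -0.31 without it, with 41 of 47 below 0. Rfc4, a clamp loader subunit, had 23.4, 31.9 and 51.1 CPM at 20% and 28.0, 20.5 and 24.6 at 4%. E2f1, which drives entry to S phase, had 35.3, 63.5 and 62.4 CPM, then 80.5, 70.5 and 112, with an unadjusted p of 0.0353 and no call. The 24 mitosis genes summed to 3449, 5638 and 5338 CPM at 20% and 3412, 4919 and 5193 at 4%, so both libraries numbered 1 were low, whereas the histone sum was low in only 1 of them. Ccnb1 had 314, 687 and 564 CPM, then 250.2, 492 and 339.9, and Mki67 337, 512 and 475 CPM, then 401, 528 and 763. As a percentage of the 6-library mean, 20% oxygen replicate 1 held 45.8% for the clustered histones, 67.2% for S phase, 74.0% for mitosis and 71.6% for the replication-independent histones. The part of S phase content in the histone values was not tested.

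The summed level of other RNAs without a poly(A) tail did not follow that of the histones. The 13 that matched summed to 47848, 29843 and 47630.3 CPM at 20% and 39772, 24366 and 29728 at 4%, and 0 of the 11 tested was lowest in 20% oxygen replicate 1. Rpph1, the RNA of RNase P, had 27263, 17883 and 25233 CPM, then 20287, 13769.5 and 19582, so this single RNA was a large part of the sum. Terc, the telomerase RNA, had 87.5, 97.8 and 176 CPM at 20% and 62.8, 84.7 and 82.8 at 4%. At 20% it rose from replicate 1 to replicate 3, the order of the histone sum.

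**Figure D5:**
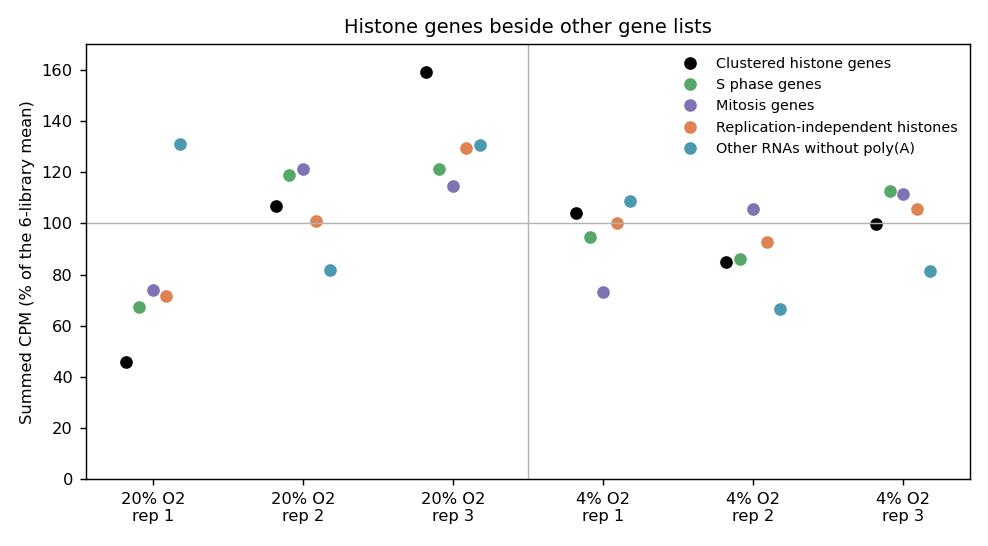
Summed CPM of the clustered histone genes and 4 other gene lists in each library, as a percentage of the list's mean over the 6 libraries. In 20% oxygen replicate 1 the histones stand at 45.8% and the other RNAs without a poly(A) tail, a sum of which Rpph1 is a large part, at 131%.

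The label checks were as follows. The 20 targets of hypoxia-inducible factor had a median log2 fold change of 1.28. Of them 14 had an unadjusted p under 0.05 (edgeR) in the higher direction, against 3.01% of all genes. Slc2a1, a glucose transporter, had 67.4, 39.7 and 40.7 CPM at 20% and 212, 193 and 146 at 4%, and Pdk1, a kinase that inhibits pyruvate dehydrogenase, had 23.1, 10.2 and 32.9 CPM, then 121.9, 123.2 and 112. The adjusted p was 0.112 for both by edgeR, and 5.09e-06 for Slc2a1 and 1.14e-06 for Pdk1 by DESeq2. Of 22 sympathoadrenal markers 21 were tested, though Hand1, Nefl and Nefm stayed under 0.3 CPM. Chga had 246, 294 and 247 CPM at 20% and 564, 399.6 and 519 at 4%, and Slc18a1 4.58, 1.82 and 3.99 CPM, then 23.6, 7.84 and 15.5. Of 18 markers of other cells 9 were tested, and Lum and Cd3e had 0 counts in all libraries. Their summed level was 48.6 CPM in 20% oxygen replicate 1, the library low in histones, with Pdgfrb at 24.5 CPM, and 8.19 and 11.9 in the other 20% libraries. At 4% it was 26.4, 13.8 and 17.2 CPM. Gfap and Sox10 stayed under 1.4 CPM in all 6 libraries. The part of other cells in the histone values was not tested.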

How the data were processed

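RNA of 6 libraries was analysed from 1 table that the authors deposited, with a read count and an RPKM value for each gene and sample. Per the file headers the counts are gene counts, and all of them were even numbers (100%). The authors' RPKM values, also deposited, are per kilobase of the listed coding length and were used only to recover library totals. Tools listed in the submitters' processing notes are TopHat2 2.0.6, HTSeq and Bowtie, with mm10 as the build. How multiply mapped reads were counted, and whether strand was used, is not stated there. 0 columns of sample values were left unmatched.

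Counts as deposited were tested in R 4.3.3 with edgeR 4.0.16: filterByExpr (minimum count 10, minimum total 15; 14979 genes kept), TMM scaling and the two-sided quasi-likelihood test of 4% against 20% oxygen, without covariates, with Benjamini-Hochberg adjustment over all 14979 genes and calls at an adjusted p under 0.05. Standard errors are the log2 fold change over the square root of F. Gene counts totalled 124259152 to 163695286 per library. Alternatives were RLE scaling, library totals alone, no filter, a replicate block, DESeq2 1.42.0, voom from limma 3.58.1, and each library left out. The fit was also run on simulated counts, with less spread than these data, so that run does not show its power here. Pair differences used a pseudocount of 0.1 CPM. Same-numbered libraries deviated together from their group means (r = 0.285, 0.465 and 0.233), so the numbers may pair the samples, a hint from the data and not from the labels. The main fit did not use this pairing, and its p-values, standard errors and fold changes leave it out. Only the replicate block and the pair differences used it.

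The members and lists were chosen with earlier results of these data known. Named genes were, per histone type, the 3 most abundant members and the 2 with the smallest p, per context list the 2 with the smallest p, and Slbp, Npat, H2afx, H2afz, H3f3b, H1f0, Hist3h2a, Hist3h2ba, Hist4h4 and Slc2a1; other genes named with values were chosen after these were seen. Stem-loops were searched in GENCODE M21 transcripts, and promoters come from RefSeq.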

Additional observations from a re-analysis of the deposited data

How the results depend on the processing

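No clustered histone gene was called in either direction under RLE or DESeq2 scaling, library totals alone, no filter on low counts, the replicate block, limma-voom or the 6 fits that left out 1 library each. The median log2 fold change of the members ran from -0.45 to 0.34 over those 6 fits, and their summed log2 ratio from -0.47 to 0.33. Of the 61 members tested with all libraries, 32 lay below both remaining 20% libraries without 20% oxygen replicate 1, against 11% of all genes. Without replicate 1 of both groups 35 did. Without 20% oxygen replicate 2, 1 member had all 4% libraries higher, and without 20% oxygen replicate 3, 2 did, so the number of members whose groups do not overlap ranged from 0 to 2 above and from 0 to 32 below. Over all genes the shares were 6.33% above and 3.72% below with all 6 libraries, and 13.9% and 11% without 20% oxygen replicate 1. No share over all genes is given for the other omissions, so those counts have no background to be read against. Genes of the 9 context lists called higher numbered 0 by edgeR, 9 with no filter, 4 with the replicate block and 10 by DESeq2. Over all genes the calls were 0 of 14979, 25 of 18732, 11 of 14979 and 53 of 14979. By the block and DESeq2 the listed genes called were hypoxia-inducible factor targets and Slc18a1. The block, that is, the pairing of same-numbered libraries, changed no other call among the genes named here.

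Of the genes picked by the naming rule, these changed sign, none of them called, and the cause was not tested. Members outside the rule changed sign too and are not listed. With the replicate block 53 of 61 members were above 0, against 24 in the main fit. With the replicate block the log2 fold changes were 0.13 for Hist1h1b, 0.035 for Hist1h1a, 0.10 for Hist3h2a, 0.0067 for Hist2h2ac, 0.13 for Hist1h2bm, 0.13 for Hist1h3i and 0.0042 for H3f3b. limma-voom gave 0.17 for Hist1h1b, 0.081 for Hist1h1a, 0.12 for Hist3h2a, 0.023 for Hist2h2ac, 0.010 for Hist2h2bb, 0.14 for Hist1h2bm, 0.006 for Hist3h2bb-ps, 0.13 for Hist1h3i and 0.0049 for H3f3b. Library totals alone, which moved the median of all genes from -0.025 to 0.048 and so shift most genes alike, gave 0.0026 for Hist1h1a, 0.026 for Hist3h2a, 0.024 for Hist1h2bm, 0.013 for Hist1h3i and 0.054 for H3f3b. Hist1h4d was at -0.0063 with RLE scaling and in DESeq2. Without replicate 1 of both groups, chosen after seeing the data, the values were -0.025 for Hist1h1e, -0.099 for Hist1h1c, -0.071 for Hist1h2ak, -0.18 for Hist3h2ba, -0.40 for Hist1h3f, -0.21 for Hist1h3e, -0.26 for Hist2h3b, -0.20 for Hist1h4d and -0.23 for H2afx. With 1 library left out at a time, the range was Hist1h1b from -0.64 to 0.53, Hist1h1a from -0.52 to 0.54, Hist1h1e from -0.17 to 0.17, Hist1h1t from -1.38 to 1.04, Hist1h1c from -0.064 to 0.28, Hist3h2a from -0.42 to 0.32, Hist1h2ak from -0.16 to 0.40, Hist2h2ac from -0.63 to 0.30, Hist2h2bb from -0.71 to 0.40, Hist3h2ba from -0.12 to 0.60 and Hist1h2bm from -0.45 to 0.37. For the others it was Hist3h2bb-ps from -0.73 to 0.033, Hist1h3f from -0.35 to 0.41, Hist1h3e from -0.25 to 0.34, Hist1h3i from -0.48 to 0.50, Hist2h3c2 from -0.88 to 0.21, Hist2h3b from -0.21 to 1.15, Hist4h4 from -0.64 to 0.18, Hist1h4d from -0.24 to 0.20, Hist2h4 from -0.71 to 0.34, Sox10 from -2.08 to 0.013, H2afx from -0.16 to 0.29 and H3f3b from -0.20 to 0.090.

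Depth limits the members at the lowest levels, such as Hist1h1t with 2 counts in the libraries numbered 1, and shared sequence limits which member a read is given to.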
